A study of Mus musculus with 3 samples.

Results

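Long noncoding RNA genes that are studied for their place in the nucleus or for the small RNAs they carry were measured in NIH3T3 cells by UMI-RNAseq. The 9 genes were Malat1 and Neat1, 2 long RNAs that stay in the nucleus, and Snhg1, Snhg3, Snhg5, Snhg6, Snhg8, Snhg12 and Snhg15, 7 host genes of small nucleolar RNAs (snoRNAs). The genes were chosen by name, with no threshold on their values but with earlier results of these data known, and all 9 were found among the 55573 genes of the table. NIH3T3 is an established line of mouse embryonic fibroblasts, and the cells were grown without treatment in medium with serum. The 3 libraries, called library 1, library 2 and library 3, share this 1 condition, so no treatment or genotype was compared. No label states that the libraries came from separate cultures, so their spread may be technical. In UMI-RNAseq every molecule receives a random tag before amplification, which allows PCR copies to be removed. The values are FPKM, in which fragments are divided by gene length in kilobases and scaled to 1000000 counted fragments, and the fragments behind them were recovered as whole numbers.

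Malat1 RNA gathers at nuclear speckles, the bodies rich in splicing factors. Neat1 RNA is the scaffold of paraspeckles, nuclear bodies that hold RNA-binding proteins. A host gene is transcribed, its introns release snoRNAs, and the spliced host RNA remains as a separate product. snoRNAs guide the chemical modification of other RNAs, above all ribosomal RNA, in particles of 2 classes named for their sequence motifs, box C/D and box H/ACA. Several spliced host RNAs begin with a run of pyrimidines, the hallmark of mRNAs for ribosomal proteins, and are unstable in the cytoplasm.

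The libraries held 14423209, 13959723 and 14307241 counted fragments. All 8 fibroblast markers were at an FPKM of at least 1, with a summed level of 9175 to 9294, and Fn1, which encodes fibronectin, was the highest at 4377 ± 86.1 (SD, n = 3). The extraction text of the labels speaks of retina. Of 10 retina markers, 0 reached an FPKM of 1, their summed level was 0.564 to 1.09, and Nrl was among those listed at 0. None of the 4 epithelial markers (summed level 0.370 to 0.559, Epcam and Krt18 at 0) or the 4 lymphoid markers (0.0720 to 0.288, Cd3e at 0) reached an FPKM of 1. Among all genes, 23.2% reached a mean FPKM of 1. The libraries were treated as NIH3T3.

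Of the 9 genes, 8 had a mean FPKM of at least 10, and Snhg3 was listed at 0. The median over the 9 genes was 75.7 FPKM. Among all genes, 14.8% had a mean FPKM of at least 10, and among the 13366 long noncoding RNA genes this held for 92 genes, or 0.688%.

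Malat1 (ENSMUSG00000092341, GRCm38 chr19:5795690-5802672, minus strand) was the highest of the 9 genes. Libraries 1, 2 and 3 gave 452.7, 490.2 and 506.3 FPKM, a mean of 483 ± 27.5 (SD, n = 3). It was lowest in library 1, and it stood at rank 169 of the 12905 genes whose mean FPKM reached 1. Among long noncoding RNA genes it was at rank 3. These FPKM rested on 14170, 14849 and 15719 fragments.

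Neat1 (ENSMUSG00000092274, chr19:5824708-5845478, minus strand) is the neighbour of Malat1 on the same strand, with 22035 nt between the annotated genes. Its FPKM was 267.2, 280.5 and 287.2 in libraries 1, 2 and 3, with a mean of 278.3 ± 10.2 (SD, n = 3) and rank 328. It was also lowest in library 1 and highest in library 3. In fragments Neat1 stood above Malat1, with 24582, 24981 and 26210, which made it rank 1 among long noncoding RNA genes and rank 27 among all genes. Malat1 was at rank 67 on that scale.

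The order of the pair turned with the treatment of gene length. Per kilobase of mean isoform, Malat1 was above Neat1 by 1.69, 1.75 and 1.76 times in the 3 libraries, with a mean ratio of 1.73 ± 0.0359 (SD, n = 3). In fragments with no division by length, Neat1 was above Malat1 by 1.73, 1.68 and 1.67 times, with a mean of 1.69 ± 0.0354. Both directions held in 3 of 3 libraries, and each ratio varied little. The annotated isoforms of Malat1 span 485 to 6983 nt and those of Neat1 711 to 20771 nt, while the deposited FPKM divides by their means of 2170 and 6379 nt. Per kilobase of the longest isoform the means were 150.1 ± 8.54 for Malat1 and 85.5 ± 3.13 for Neat1, in the same order as the deposited FPKM. Gene-level values do not separate the short from the long Neat1 isoform.

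**Figure D1:**
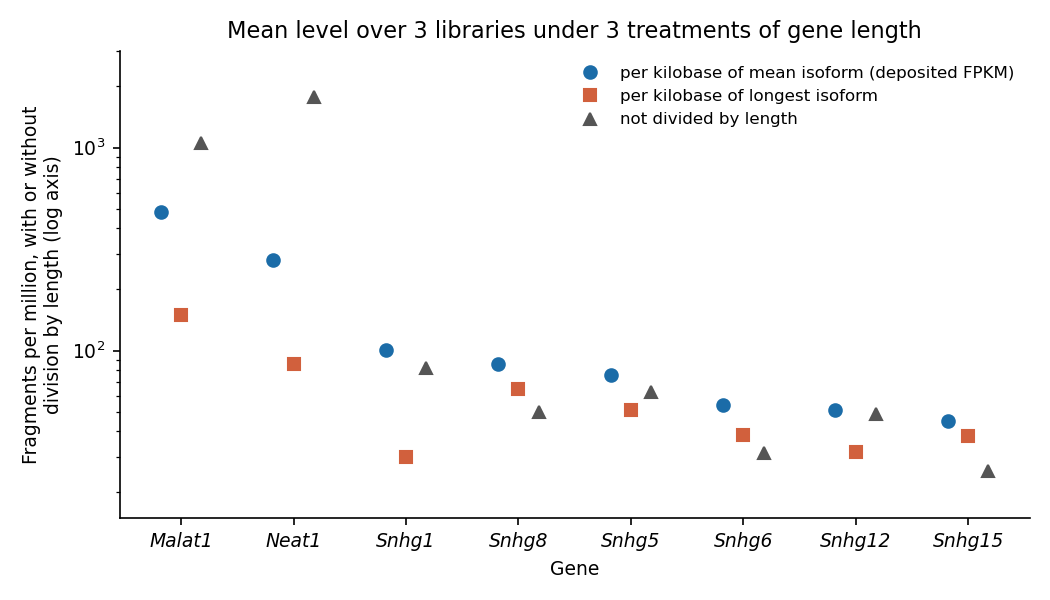
Mean level over 3 libraries (vertical log axis) for the 8 genes above 0, as deposited FPKM, per kilobase of the longest isoform, and as fragments per 1000000 not divided by length. Neat1 is below Malat1 on both length-divided scales and above it in fragments per 1000000 (1775 against 1048).

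The labels name a TruSeq RNA kit, and such kits enrich polyadenylated RNA with oligo-dT. The 3′ ends of the annotated Malat1 and Neat1 isoforms are shown because both genes make ends without an ordinary poly(A) tail, and capture by oligo-dT bears on their counts. The sequences were read from GENCODE M21 transcripts. Capitals mark a genomic run of A or, at an end, the polyadenylation signal AATAAA.
Malat1 A run: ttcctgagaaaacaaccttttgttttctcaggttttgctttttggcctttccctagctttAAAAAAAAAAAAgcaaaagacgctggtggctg
Malat1 end: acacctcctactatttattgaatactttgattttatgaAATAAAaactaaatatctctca
Neat1 short isoform end: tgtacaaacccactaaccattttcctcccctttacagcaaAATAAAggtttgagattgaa
Neat1 long isoform end: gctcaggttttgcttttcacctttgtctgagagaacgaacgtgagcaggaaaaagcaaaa
The Malat1 run of 12 A lies at positions 6674 to 6685 of the isoform of 6983 nt. The AATAAA signals end 16 nt before the annotated Malat1 end and 14 nt before the end of the Neat1 isoform of 3004 nt. The last 60 bases of the Neat1 isoform of 20771 nt hold no AATAAA, and its longest A run is 7. The long Neat1 isoform is known to be cut by RNase P rather than polyadenylated. Malat1 too makes ends without an ordinary poly(A) tail, so the annotated Malat1 end with AATAAA is not its only end. The part of these ends in the measured levels was not tested.

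The spliced host genes lay below this pair. Snhg1 (ENSMUSG00000108414, chr19:8723475-8726443, plus strand), host of a cluster of box C/D snoRNAs, had FPKM of 101.9, 103.0 and 97.9, with a mean of 101 ± 2.67 (SD, n = 3). Snhg8 (ENSMUSG00000104960, chr3:123507552-123508404, minus strand), host of Snora24, had FPKM of 83.6, 88.3 and 84.6, with a mean of 85.5 ± 2.49. Snhg5 (ENSMUSG00000097195, chr9:88521050-88522929, minus strand), host of Snord50a and Snord50b, had FPKM of 74.0, 74.9 and 78.1, with a mean of 75.7 ± 2.18. The values of these 3 genes did not overlap one another, and their ranks were 1196, 1462 and 1742.

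The other 3 detected host genes lay close together. Snhg6 (ENSMUSG00000098234, chr1:9941959-9944118, minus strand), host of Snord87, had FPKM of 58.8, 50.2 and 53.2, with a mean of 54.1 ± 4.39 (SD, n = 3). Snhg12 (ENSMUSG00000086290, chr4:132308623-132311024, plus strand), which hosts snoRNAs of both classes, had FPKM of 53.1, 52.9 and 46.8, with a mean of 50.9 ± 3.60. Snhg15 (ENSMUSG00000085156, chr11:6525591-6528760, minus strand), host of Snora9, had FPKM of 41.8, 47.0 and 45.4, with a mean of 44.7 ± 2.64. Snhg6 and Snhg12 were both highest in library 1, where Snhg15 was lowest. Their lowest values were in library 2 for Snhg6 and in library 3 for Snhg12. Their ranks were 2583, 2745 and 3128.

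**Figure D2:**
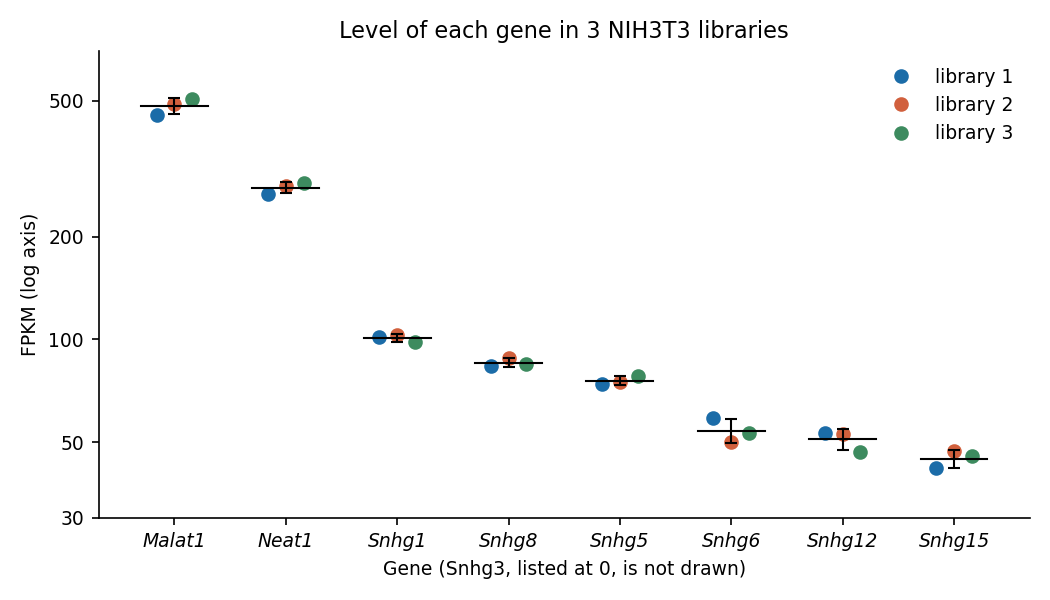
FPKM (vertical log axis) of the 8 genes above 0 in library 1, 2 and 3, with the mean as a line and the SD as a bar (n = 3). Malat1 and Neat1 stand apart from the host genes, which run from Snhg1 at a mean of 101 down to Snhg15 at 44.7.

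The order of neighbouring genes was compared within each library over 7 pairs. With 3 libraries an exact permutation test (two-sided, by sign flips) cannot give a p below 0.25, or 0.292 after Benjamini-Hochberg adjustment over the 7 pairs, so no pair could pass 0.05. Neat1 was above Snhg1 by 2.62, 2.72 and 2.93 times, a mean ratio of 2.76 ± 0.158 (SD, n = 3), and this was the widest step. Snhg1 was above Snhg8 by 1.18 ± 0.0330 times, Snhg8 above Snhg5 by 1.13 ± 0.0477 and Snhg5 above Snhg6 by 1.41 ± 0.130, each in 3 of 3 libraries without overlap. These 3 steps, like those above them, had the smallest p that the exact test allows, 0.25. Snhg6 and Snhg12 did not differ beyond their spread. Their ratio was 1.11, 0.949 and 1.14, with Snhg6 higher in 2 of 3 libraries (exact permutation p = 0.5, also 0.5 adjusted). Snhg12 was above Snhg15 by 1.27, 1.13 and 1.03 times, in 3 of 3 libraries (exact permutation p = 0.25), although the values of the 2 genes overlapped between libraries.

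The order among host genes also moved with the length used. Snhg1 has 18 annotated isoforms of 312 to 2728 nt, with a mean of 810 nt. Per kilobase of its longest isoform its level was 29.97 ± 0.792, below Snhg8 at 64.3 ± 1.87, whereas its deposited FPKM was above that of Snhg8. Snhg12, with 10 isoforms up to 1538 nt, fell below Snhg15 in the same way, with 31.5 ± 2.23 against 37.8 ± 2.23 per kilobase of the longest isoform. Which isoforms the cells made cannot be told from values per gene.

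The spread over libraries was set against counting error with a chi-square statistic of the fragments, for genes with at least 10 fragments per library on average. The statistic passed its 5% limit of 5.99 for 9.48% of the 13632 genes tested and for 3 of the 8 genes tested here, Malat1, Neat1 and Snhg12. Libraries of 1 condition are compared here, so the call describes spread only.

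Malat1 had a coefficient of variation of 5.69%, where counting error alone gives 0.819%, and its statistic was 97.5. For Neat1 the coefficient of variation was 3.66% against 0.629%, and the statistic was 68.4. Both passed the limit for any pair of libraries, with statistics of at least 7.99 and 7.03 in the pair of libraries 2 and 3, where the limit is 3.84. Such deep coverage lets small differences pass, and 41.3% of the 138 genes with at least 10000 fragments per library passed too. The median coefficient of variation of those genes was 1.18%.

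Malat1 and Neat1 shared their order over the libraries, lowest in library 1 and highest in library 3. The host genes as a group did not follow it, although Snhg5 had the same order. Malat1 and Neat1 summed to 2687, 2853 and 2931 fragments per 1000000 in libraries 1, 2 and 3, and made up 21.2%, 21.8% and 22.4% of all long noncoding RNA fragments. The 7 host genes summed to 301, 303 and 294 fragments per 1000000. All other long noncoding RNA genes summed to 9668, 9920 and 9868, so they too were lowest in library 1 but were not highest in library 3. In a bulk library, a change in the number of cells with an RNA and a change in RNA per cell cannot be told apart.

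Of the 6 detected host genes, 4 varied by no more than or little more than counting error, and Snhg6 and Snhg12 varied more. Snhg1, Snhg5 and Snhg8 had coefficients of variation of 2.64%, 2.88% and 2.91%, where counting error gives 2.93%, 3.36% and 3.75%. Snhg15 was at 5.89% against 5.25%. Snhg6 was at 8.13% against 4.73%, with a statistic of 5.90, just inside the limit of 5.99. Snhg12 was at 7.06% against 3.81%, with a statistic of 6.91, just past it. The Snhg12 call rested on library 3. Without library 3 its statistic was 0.00478, and the limit for a pair is 3.84. Snhg6 passed the limit without library 3, with 5.65. Among the 4900 genes of 300 to 1300 fragments per library, 9.12% passed, and their median coefficient of variation was 3.52%.

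**Figure D3:**
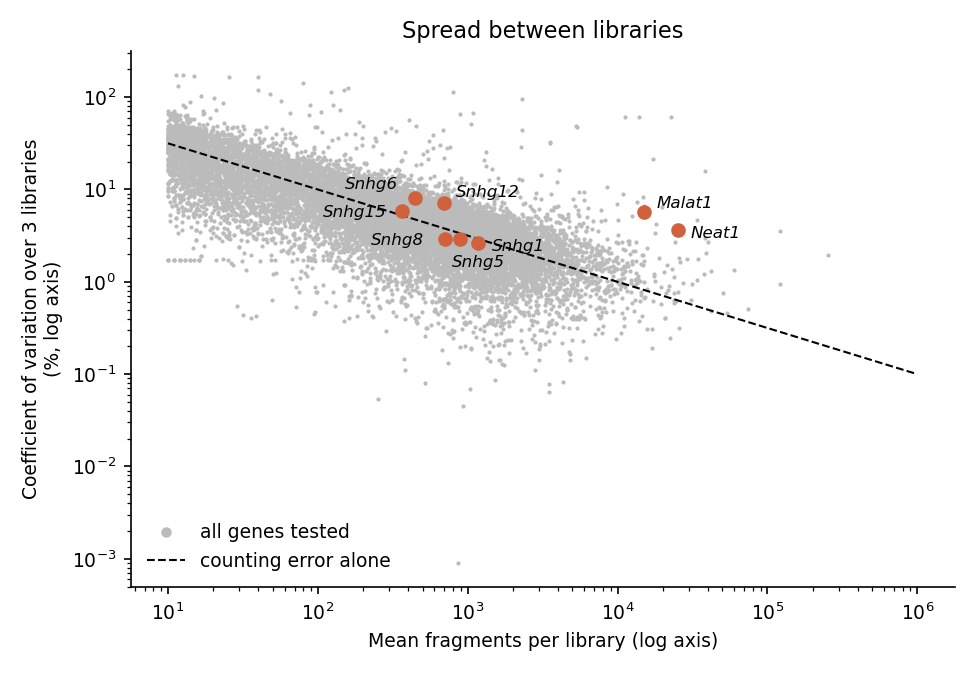
Coefficient of variation over the 3 libraries (vertical log axis, %) against mean fragments per library (horizontal log axis) for all 13632 genes tested, with the 8 genes in orange and counting error alone as a dashed line. Malat1 and Neat1 lie above the line at 5.69% and 3.66%, and the host genes lie around it.

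The values of the snoRNA genes themselves had not been used in the choice of the host genes. The annotation places 20 snoRNA genes inside the 7 host genes on the same strand, with 8 in Snhg1, 5 in Snhg12, 2 each in Snhg3 and Snhg5, and 1 each in Snhg6, Snhg8 and Snhg15. Snora16a is annotated under 2 IDs in Snhg12. The following box C/D snoRNAs are shown for their boxes and for the near-identity of the Snord50 pair, and since nearly all are listed at 0 they were picked after their values were seen. Their sequences come from GENCODE M21 on GRCm38, 5′ to 3′ on the host strand, and capitals mark TGATGA in the first 25 bases (box C) and CTGA in the last 15 (box D).
Gm25855 (Snhg1, chr19:8723993-8724064): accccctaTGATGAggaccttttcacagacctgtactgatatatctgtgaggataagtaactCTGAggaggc
Snord22 (Snhg1, chr19:8725866-8725991): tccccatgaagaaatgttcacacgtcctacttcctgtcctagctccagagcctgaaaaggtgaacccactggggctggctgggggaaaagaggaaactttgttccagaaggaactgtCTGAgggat
Snord99 (Snhg12, chr4:132310691-132310764): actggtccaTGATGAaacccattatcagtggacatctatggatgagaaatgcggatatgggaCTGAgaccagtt
Snord87 (Snhg6, chr1:9942463-9942549): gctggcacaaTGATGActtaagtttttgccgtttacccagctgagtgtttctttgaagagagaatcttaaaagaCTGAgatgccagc
Snord50a (Snhg5, chr9:88521529-88521600): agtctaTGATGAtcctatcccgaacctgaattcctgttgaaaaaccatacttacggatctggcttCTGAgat
Snord50b (Snhg5, chr9:88521797-88521868): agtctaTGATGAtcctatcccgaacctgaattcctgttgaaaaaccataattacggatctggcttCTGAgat
Both boxes were found in 10 of the 20 hosted genes and in 20.3% of all 1507 annotated snoRNA genes. A D box alone was found in 2 of the 20, Gm25894 and Snord22, and in 10.7% of all. Snord50a and Snord50b differ at 1 of 72 bases, and whether this bears on the assignment of reads was not tested.

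Box H/ACA snoRNAs end with ACA followed by 3 bases, which the script searched as ACANNN at the 3′ end of genes longer than 110 nt and which stands in capitals here.
Snora24 (Snhg8, chr3:123507937-123508066): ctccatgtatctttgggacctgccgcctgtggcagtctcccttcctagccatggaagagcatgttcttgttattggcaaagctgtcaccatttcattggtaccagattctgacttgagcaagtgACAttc
Snora61 (Snhg12, chr4:132310240-132310369): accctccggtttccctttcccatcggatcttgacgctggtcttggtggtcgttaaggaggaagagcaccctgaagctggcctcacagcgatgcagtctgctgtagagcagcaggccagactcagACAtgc
Snora9 (Snhg15, chr11:6528033-6528165): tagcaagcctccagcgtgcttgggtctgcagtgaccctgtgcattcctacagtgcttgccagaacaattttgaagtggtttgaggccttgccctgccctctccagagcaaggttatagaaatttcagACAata
Snora73a (Snhg3, chr4:132352775-132352979): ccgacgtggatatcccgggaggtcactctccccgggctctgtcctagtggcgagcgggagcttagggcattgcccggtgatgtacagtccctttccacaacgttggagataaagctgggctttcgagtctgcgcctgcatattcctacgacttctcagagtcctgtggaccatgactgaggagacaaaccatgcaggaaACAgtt
This ending was found in 7 of the 20 hosted genes and in 16.4% of all, and Snora44 in Snhg12 showed none of the motifs searched. Snora73a and Snora73b, both in Snhg3, differ at 7 of 205 bases and are 96.6% identical.

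Of the 20 hosted snoRNA genes, 19 were listed at 0 in all 3 libraries. Snord87 had 1 fragment in library 1, an FPKM of 0.797, and 0 in libraries 2 and 3. Against this single fragment the 7 host genes held 12782 fragments in all. The snoRNAs are 65 to 205 nt long, against reads of 150 nt, and how short fragments were retained is not given in the sources used here. Kits such as the one in the labels enrich polyadenylated RNA, so these rows do not measure how much snoRNA the cells held. The part of capture in the zeros was not tested.

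How the snoRNA genes overlap annotated exons moved with this result. Of the 20, 17 lie wholly within an exon of an annotated host isoform and 0 of these 17 had a fragment. Of 140 other snoRNA genes that lie wholly within an exon of another gene on the same strand, 1 had a fragment. Another 101 snoRNA genes lay inside other genes at least as high as the lowest host, free of exon overlap on the same strand. Of these 101, 87 (86.1%) had at least 1 fragment, but only 13 averaged at least 10 fragments per library. The 140 genes were not limited by the level of the gene around them, so these sets differ in more than exon overlap. A fragment that falls on exons of 2 genes is left out by HTSeq in its default mode. The mode that was used is not given in the sources used here, and its part in the zeros was not tested. Snord87, which touches no host exon, was the hosted gene with a fragment, whereas Snora73b, which touches none either, was at 0. These genes differ in other overlap, since Snora73b lies within an exon of Gm17300 on the other strand. Snord87 touches no annotated exon on either strand.

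**Figure D4:**
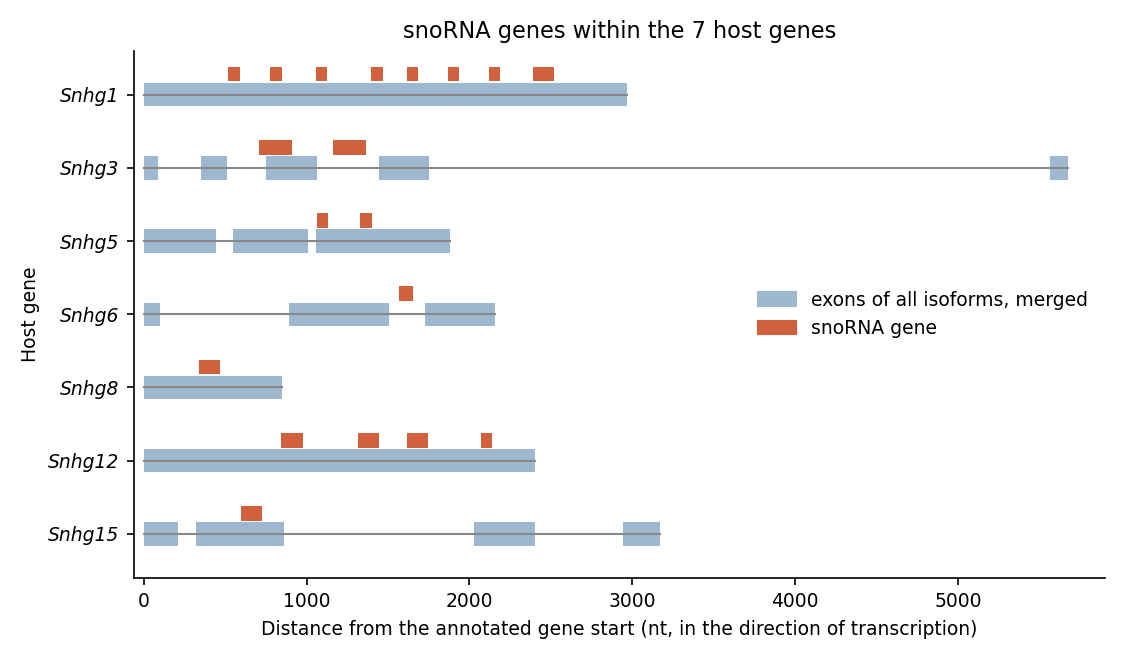
Merged exons of all isoforms (blue) and snoRNA genes (orange) of the 7 host genes, by distance in nt from the annotated start. The snoRNA genes of Snhg1 and Snhg12 lie within merged exons that cover the whole gene, and Snord87 in Snhg6 lies between exons.

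Snhg3 (ENSMUSG00000085241, chr4:132348014-132353686, minus strand), host of Snora73a and Snora73b, was listed at 0 in libraries 1, 2 and 3. A count of 3 fragments would give at most 0.485 FPKM, the upper limit that a count of 0 allows, and this covers counting error only. Snhg12 lies 36989 nt away on the opposite strand and had 729, 703 and 637 fragments. Within the Snhg3 span lie exons of other genes. Rcc1, which encodes the exchange factor of the GTPase Ran, runs on the same strand, and its annotated start is 81 nt downstream of that of Snhg3. Rcc1 was at 66.8, 70.6 and 69.6 FPKM, with a mean of 69.0 ± 1.996 (SD, n = 3). Gm17300, a long noncoding RNA on the other strand, held 3, 2 and 2 fragments.

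The exons of Snhg3 leave little sequence of their own. Of 986 nt of merged exons, 851 nt (86.3%) are shared with exons of other genes on either strand, and the longest stretch in no other gene is 81 nt, shorter than a read of 150 nt. On the same strand alone 29.8% is shared and the longest free stretch is 311 nt. Whether the counting used strand is not given in the sources used here. Among the 506 long noncoding RNA genes that share exons on either strand and have no free stretch of 150 nt, 78.9% were listed at 0, against 40.2% of the 3108 that share exons and have one. Of the 9752 that share none, 61.0% were at 0. The zero of Snhg3 covers only fragments assigned to it, and the part of the overlap in it was not tested. The other 8 genes shared 1.85% to 20.9% of their exon bases on either strand.

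**Figure D5:**
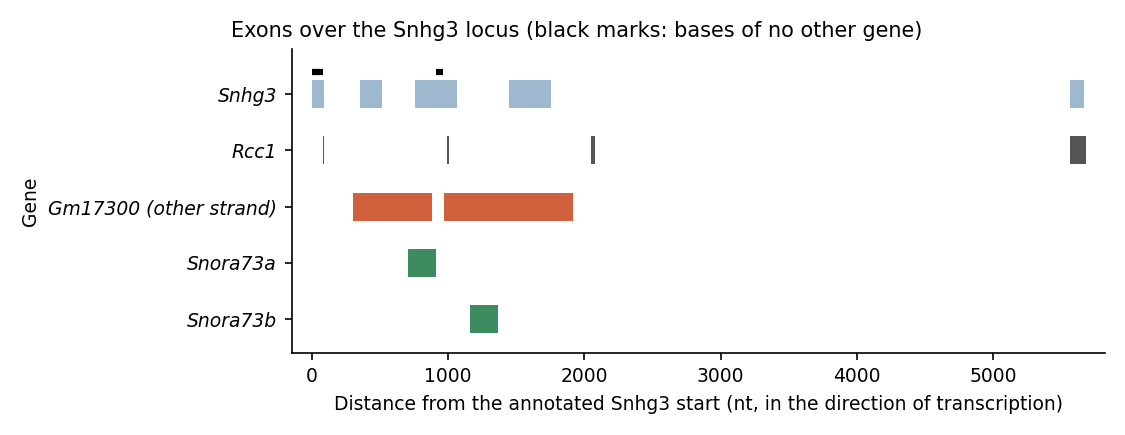
Merged exons of Snhg3 and of the genes that overlap it, by distance in nt from the annotated Snhg3 start. Black marks show the Snhg3 exon bases that are in no other gene, in stretches of 81 and 54 nt.

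The starts of the host genes were examined for a run of pyrimidines, since host RNAs of this kind are known for it. RefSeq promoter sequences on GRCm38.p6 were matched for 7 of the 9 genes, all but Neat1 and Snhg6. Each sequence covers 20 bases before to 40 after the start, and capitals mark the longest run of C and T that begins from 10 bases before to 19 after it.
Snhg1 (chr19:8723467-8723526, plus strand): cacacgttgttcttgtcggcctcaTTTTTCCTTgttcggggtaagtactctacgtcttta
Snhg12 (chr4:132308658-132308717, plus strand): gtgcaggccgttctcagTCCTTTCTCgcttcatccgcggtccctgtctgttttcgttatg
Snhg5 (chr9:88522858-88522917, minus strand): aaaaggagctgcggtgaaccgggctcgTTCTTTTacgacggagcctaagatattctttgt
Snhg8 (chr3:123508297-123508356, minus strand): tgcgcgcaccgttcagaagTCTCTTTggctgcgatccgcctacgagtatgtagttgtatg
Snhg3 (chr4:132353647-132353706, minus strand): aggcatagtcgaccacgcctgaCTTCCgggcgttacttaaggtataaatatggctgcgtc
Malat1 (chr19:5802633-5802692, minus strand): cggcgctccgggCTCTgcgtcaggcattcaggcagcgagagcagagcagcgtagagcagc
Snhg1 and Snhg12 had runs of 9 bases, as 7.98% of all 32851 promoters had at least. Snhg5 and Snhg8 had runs of 7, so 4 of the 7 genes had a run of at least 7, against 19.2% of all promoters. These runs did not all sit at the start itself. Relative to the start they began at 4 in Snhg1, -3 in Snhg12, 7 in Snhg5 and -1 in Snhg8. The base at the start was C in Snhg1 and Snhg8, and another base in Snhg12 and Snhg5. Snhg3 had a run of 5, and Malat1 and Snhg15 runs of 4, the median of all promoters. The run is a description of the RefSeq start, and transcription starts were not measured. For Snhg1, Snhg12, Snhg5 and Snhg8, the genes with runs of at least 7, the RefSeq start lies downstream of the GENCODE gene start given above. For Snhg3, Snhg15 and Malat1 the RefSeq and GENCODE starts match. Among the detected host genes, runs of 9 stood beside means of 101 and 50.9 FPKM, runs of 7 beside 75.7 and 85.5, and the run of 4 in Snhg15 beside 44.7, the lowest mean.

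Other genes of the same pathways were given from lists rather than for their values. Of 11 other snoRNA host genes in the table, 9 had a mean FPKM of at least 1 and 6 of at least 10, with a median of 19.8. Gas5, a host gene known for growth arrest, was the highest at 347.7 ± 6.21 (SD, n = 3), above every Snhg gene measured here, and Snhg9 was listed at 0. In spread, 0 of the 9 with enough fragments to be tested passed the chi-square limit, against 9.48% of all genes tested. Of 8 other long noncoding RNAs studied in nuclei or on chromatin, 4 had an FPKM of at least 1. A mean FPKM of at least 1 was found for 23.2% of all genes and 6.64% of long noncoding RNA genes. Firre, which takes part in nuclear organization, was the highest at 34.7 ± 0.953, and Meg3 was listed at 0. Malat1 and Neat1 were above all 8.

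The mRNAs of proteins that act with these RNAs were measured in the same libraries. Each of those found in the table had an FPKM of at least 1, against 23.2% of all genes. The 8 snoRNP proteins in the table, the core proteins of box C/D and H/ACA particles, had a median of 101.8 FPKM. Nop56, a core box C/D protein, was the highest at 300.8 ± 1.98, and Nop10, a core H/ACA protein, the lowest at 27.7 ± 1.93 (SD, n = 3). The 9 paraspeckle proteins had a median of 156.5, from Rbm12b1 at 8.60 ± 0.594 to Hnrnpk, an RNA-binding protein, at 477.7 ± 9.66. The chi-square limit was passed by 1 of the 8 snoRNP proteins, Gar1, a core H/ACA protein, and by 3 of the 9 paraspeckle proteins. Among all genes tested 9.48% passed.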

How the data were processed

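UMI-RNAseq of 3 libraries of untreated NIH3T3 cells was analysed. The authors deposited FPKM per gene and library. The submitters' processing notes name UMI-tools 1.0.0, HISAT2 2.0.4, HTSeq 0.6.1 and DESeq 1.10.1. Genome build and annotation for counting are not given in the sources used here, nor is the use of strand. A count model was not used, since FPKM are normalized values. Fragments were recovered as FPKM times the mean isoform length of GENCODE M21 (GRCm38) times the library total, which came from genes with 1 isoform. Of 26158 genes with fragments, 25949 (99.2%) came out whole within 0.01. With 13959723 to 14423209 fragments per library, the floor was 3 fragments, and floors cover counting error only.

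Means, SDs, ranks, within-library ratios with an exact permutation test and the chi-square statistic were computed with Python 3.11.15, numpy 2.4.6, pandas 2.3.3 and scipy 1.17.1, and figures with matplotlib 3.10.9. The scripts were tested on simulated data. Named genes are the 9 members, genes overlapping them and the highest and lowest of each list. Kcnq1ot1 and Gar1 are named after their values were seen, and single values of some listed genes are not reported here. The members and lists were chosen with earlier results of these data known. Alternatives were leaving out each library, pseudocounts, TPM scaling, other lengths, limits and backgrounds, and adding genes inside the members. Imaging data were not analysed here.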

Additional observations from a re-analysis of the deposited data

How the results depend on the processing

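Of 212 alternative values, 6 were ratios that changed direction and 55 were levels or percentiles that moved by more than the spread between libraries. The other 151 were ratios that kept their direction, whatever their size, levels and percentiles that moved less, and counts, whether or not they changed. Some counts changed with the limit. The number of other snoRNA host genes was 9 at an FPKM of at least 1 and 6 at an FPKM of at least 10. A ratio could keep its direction and still move far, as the log2 ratio of Neat1 to Snhg1 did, from 1.46 to 4.44 in fragments per 1000000. Rescaling to 1000000 per library (TPM) gave means of 700.3 for Malat1, 403.4 for Neat1, 146.3 for Snhg1, 123.9 for Snhg8, 109.7 for Snhg5, 78.3 for Snhg6, 73.8 for Snhg12 and 64.9 for Snhg15. Per kilobase of the longest isoform the means were 150.1, 85.5, 29.97, 64.3, 51.1, 38.5, 31.5 and 37.8 in the same order of genes. Per kilobase of merged exons, a choice made after seeing the data, they were 150.1, 85.5, 27.5, 58.5, 36.0, 27.4, 20.2 and 18.8. Fragments per 1000000 were 1048, 1775, 81.8, 49.9, 62.4, 31.4, 48.5 and 25.5.

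The percentile among genes whose mean FPKM reached 1 was 98.69, 97.46, 90.73, 88.67, 86.50, 79.98, 78.73 and 75.76 in that order of genes. Among all genes above 0 it was 99.35, 98.75, 95.43, 94.42, 93.35, 90.14, 89.52 and 88.06. By fragments per 1000000 it was 99.48, 99.79, 76.36, 63.36, 69.46, 50.43, 62.42 and 45.14, and among long noncoding RNA genes 99.66, 99.21, 98.76, 98.65, 98.42, 97.75, 97.52 and 97.30.

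By fragments per 1000000 the log2 ratio changed direction for Malat1 to Neat1 (-0.76), Snhg8 to Snhg5 (-0.32) and Snhg6 to Snhg12 (-0.63). With the longest isoform it did so for Snhg1 to Snhg8 (-1.10) and Snhg12 to Snhg15 (-0.26), and with merged exons for Snhg1 to Snhg8 (-1.09). The length used makes these shifts by construction. At the 1% limit of the chi-square statistic 2 of the 8 genes passed, Malat1 and Neat1, instead of 3. No paired comparison of conditions was possible because the libraries share 1 condition. The 20 hosted snoRNA genes and Snhg3 hold 1 and 0 fragments, and the cause was not tested.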

Other observations

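Small genes inside Malat1 and Neat1 were listed at 0 as well. Gm27694 lies within the exons of Malat1 on the same strand, and Gm37376 within them on the other strand. Gm27533, Gm27505 and Gm28006 lie within the exons of Neat1 on the same strand. Malat1 and Neat1 held 44738 and 75773 fragments over the 3 libraries. In the whole table, 96.4% of the 1561 genes that share at least 90% of their exon bases with other genes on either strand were listed at 0, against 57.5% of the 43517 genes that share none. Kcnq1ot1, an RNA that silences an imprinted cluster, had a mean FPKM of 0.724 ± 0.0480 (SD, n = 3) but 2876 fragments over the 3 libraries. It passed the chi-square limit, as 1 of the 8 other nuclear long noncoding RNAs did, not all of which had enough fragments to be tested. Among all genes tested 9.48% passed.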
